A study of Mus musculus with 6 samples.

Results

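The 8 transcription factor genes Fos, Jun, Atf2, Creb1, Elk1, Myc, Max and Ddit3, whose products lie downstream of the kinases that UV light activates, were followed in mouse skin irradiated with or without topical blockade of PD-L1. They were taken by symbol from a table of 254 genes, 248 endogenous and 6 housekeeping, and all 8 were found and tested. SKH-1 mice, hairless animals with a working immune system, gave full-thickness skin of the back. Its RNA was measured with the nCounter Mouse Inflammation V2 panel, in which barcoded probes are hybridised to transcripts and counted with no amplification step. Both groups received an acute dose of solar simulated ultraviolet light (90 kJ/m2 of UVA, 6 kJ/m2 of UVB), and the skin was collected 24 h afterwards. The UV group (n = 3), whose sample titles read WT-SSL, was given acetone, the vehicle. The titles of the other group read BMS-202-SSL and do not carry the term WT. In the UV plus BMS-202 group (n = 3) the skin was treated with BMS-202, a small-molecule blocker of the immune checkpoint ligand PD-L1, at 8 mM. In both groups 200 µl was applied at each of 3 times, 24 h and 1 h ahead of the exposure and right after it. The labels give 3 mice per group without tying a sample to a mouse, and p-values below measure the spread between these samples, which may be technical. Skin without irradiation was not analysed here, and no difference below says whether a gene lay nearer to its unexposed level.

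UV light activates the ERK, JNK and p38 mitogen-activated protein kinases, and these phosphorylate transcription factors that are already present in the cell. Elk1 protein acts at the serum response element of the Fos gene, while Atf2, Creb1 and Jun are basic leucine zipper proteins that bind related DNA elements as dimers. Fos and Jun proteins form the heterodimer AP-1, which drives matrix protease and cytokine genes in irradiated skin. Myc protein binds DNA as a dimer with Max. Ddit3 encodes CHOP, a factor made when unfolded proteins accumulate. Much of the regulation of these proteins is by phosphorylation, which RNA counts do not show.

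Promoter sequences are shown for the 4 genes that hold one of 5 short elements bound by members of these families, because several of the factors are known to act on each other's genes. The 5 elements, searched on both strands from 250 bases before to 10 bases after the start site, were the CRE TGACGTCA, its 6-letter core TGACGT (which the CRE contains), the AP-1 element TGACTCA, the AP-1-like element TGACATCA and the E-box CACGTG. Sequences are from RefSeq (GRCm38.p6), 7 of the 8 genes matched, all but Myc, and capitals mark the element. The Fos window is chr12:85473640-85473899 on the plus strand, Jun chr4:95052213-95052472 on the minus strand, Ddit3 chr10:127290543-127290802 on the plus strand and Max chr12:76962239-76962498 on the minus strand.
Fos: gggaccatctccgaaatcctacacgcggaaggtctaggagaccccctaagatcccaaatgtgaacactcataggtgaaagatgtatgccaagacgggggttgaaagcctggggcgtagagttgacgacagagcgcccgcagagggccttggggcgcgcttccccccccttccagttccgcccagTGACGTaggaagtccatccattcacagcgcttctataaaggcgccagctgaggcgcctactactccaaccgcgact
Jun: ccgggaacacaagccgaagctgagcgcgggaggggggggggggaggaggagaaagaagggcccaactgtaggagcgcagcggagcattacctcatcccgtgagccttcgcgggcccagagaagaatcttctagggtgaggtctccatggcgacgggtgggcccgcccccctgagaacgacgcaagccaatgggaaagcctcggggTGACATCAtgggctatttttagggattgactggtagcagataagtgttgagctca
Ddit3: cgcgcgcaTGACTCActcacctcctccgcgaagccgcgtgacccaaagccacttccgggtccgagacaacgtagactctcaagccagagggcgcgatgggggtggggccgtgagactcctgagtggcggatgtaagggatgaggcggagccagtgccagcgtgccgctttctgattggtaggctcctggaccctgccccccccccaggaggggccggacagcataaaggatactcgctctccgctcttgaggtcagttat
Max: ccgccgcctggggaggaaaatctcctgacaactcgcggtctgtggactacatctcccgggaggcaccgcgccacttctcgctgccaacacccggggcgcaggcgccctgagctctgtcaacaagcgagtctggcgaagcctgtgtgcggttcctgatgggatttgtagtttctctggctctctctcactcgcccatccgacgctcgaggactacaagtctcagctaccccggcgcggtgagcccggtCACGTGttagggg
The Fos window holds the CRE core, starting 66 bases before the start site. Jun holds the AP-1-like element, starting 45 bases before it. Ddit3 holds the AP-1 element, starting 242 bases before it, and in Max the E-box lies across the start site. Of all 32851 RefSeq promoter windows of this length, 6.9% hold the CRE core, 3.37% the AP-1-like element, 4.65% the AP-1 element, 6.34% the E-box and 1.67% the full CRE. A match describes the letters only, and binding was not measured.

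The values are probe counts scaled within each sample so that Gapdh reads 6417.31, and values under 20 are written as 20. Counts were worked back from the scaled values above 20 and are estimates, used for description only. Their total ranged from 142900 to 160891 in UV skin, and from 41537 to 45040 after BMS-202, leaving out the genes at 20 (49 to 51 per UV sample and 18 to 19 per BMS-202 sample), which have no such count. Directions are therefore relative to Gapdh unless another scaling is named. The other 5 housekeeping genes read 2.33 to 10.6-fold lower with BMS-202 on this scale, and directions under other references are given after the values of each gene. A value was taken as near background when its group mean lay under the highest negative control limit of the group (mean + 2 SD of the 8 negative probes in a sample), which was 26.6 with UV and 45.3 with BMS-202.

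Relative to Gapdh, 6 of the 8 genes were lower with BMS-202, 2 were higher, and all 8 passed (limma, adjusted p under 0.05 over the 240 endogenous genes tested). Jun fell furthest, 5.92-fold, followed by Fos (4.15-fold), Atf2 (3.38-fold), Myc (3.32-fold), Ddit3 (2.31-fold) and Max (1.26-fold). Creb1 rose at least 3.71-fold, and Elk1 was higher by an amount that lies near background. Across the panel 55% of tested genes were called lower and 38.3% higher, 93.3% in all, so passing the test does not set these genes apart. Of the 92 called higher, 38 read 20 in all UV samples, so they were tested only through BMS-202 skin and could only be called higher. The median log2 difference was -1.47 over the 8 genes and -0.56 over all 240, where values enter as log2(value + 1) and the UV mean is subtracted from the BMS-202 mean. These medians compare genes of unlike level, since the median UV mean was 433 for the 8 genes and 164 for all 240. Tested genes with UV means of 300 to 1000 had a median of -1.80. Over the 202 tested genes above 20 in at least 1 UV sample it was -0.99. No value of the 8 genes was at 20, and in all 8 the samples of the groups did not overlap, as in 95% of tested genes.

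**Figure D1:**
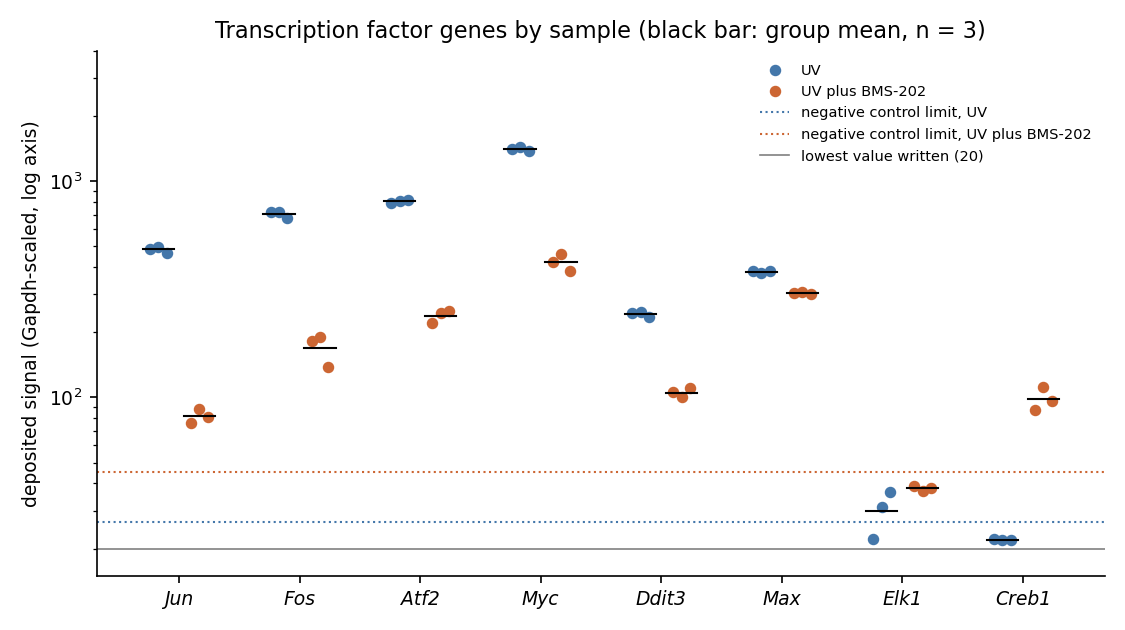
Deposited signal (log axis) of the 8 genes in each of the 3 UV and 3 UV plus BMS-202 samples, ordered by change, with black bars at group means, dotted lines at the negative control limits (26.6 and 45.3) and a grey line at 20. From Jun to Max the BMS-202 points lie below the UV points, Elk1 lies around the limits, and Creb1 crosses from under its limit to about 98.5.

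Among the AP-1 genes, Jun, which encodes the partner that can also pair with itself, read 487, 497 and 467 in the UV samples and 76.3, 88.3 and 80.8 with BMS-202. The groups are far apart, and each BMS-202 value is nonetheless above the negative control limit. The log2 difference was -2.55 ± 0.076 (SE, limma adjusted p = 2.14e-10). Fos, which needs a Jun protein as partner to bind DNA, read 722, 722 and 673 with UV and 182, 190 and 139 with BMS-202. Its BMS-202 samples spread more widely than those of Jun, with replicate 3 the lowest, and remain well under all UV values. The log2 difference of Fos was -2.06 ± 0.11 (SE, limma adjusted p = 1.40e-08).

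The 2 factors that bind CRE-type elements moved apart, Atf2 lower and Creb1 higher. Atf2, a target of JNK and p38 that pairs with Jun, read 794, 809 and 818 with UV and 220, 245 and 251 with BMS-202, a log2 difference of -1.75 ± 0.060 (SE, limma adjusted p = 6.00e-10). Creb1, which encodes the cyclic AMP and stress kinase responsive factor CREB, read 22.2, 21.8 and 21.8 with UV and 87.2, 112 and 96.1 with BMS-202. All 3 UV values lie just above the lowest value written and under the negative control limit, whereas all 3 BMS-202 values lie above the limit of 45.3. Its log2 difference was 2.11 ± 0.11 (SE, limma adjusted p = 1.14e-08). The estimated probe counts behind Creb1 were 24 to 26 in UV skin and rose to 72 to 94 after BMS-202. The negative probes also read more after BMS-202, averaging 17.4 to 18.5 counts per sample against 11.0 to 13.9 in UV skin. With the negative control mean subtracted the log2 difference of Creb1 was 2.72. The part of background in the UV value of Creb1 was not tested.

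Elk1, the factor that links ERK, JNK and p38 to Fos, read 22.2, 31.0 and 36.7 with UV and 38.8, 37.0 and 38.2 with BMS-202. The highest UV value is close to the lowest BMS-202 value, and the BMS-202 mean of 37.99 lies under the negative control limit, so no fold is given. The log2 difference of 0.36 ± 0.15 (SE) passed narrowly (limma adjusted p = 0.0427). It was 0.17 (adjusted p = 0.140) without UV replicate 1. The adjusted p was 0.157, 0.0967 and 0.149 without UV plus BMS-202 replicates 1, 2 and 3. With the negative control mean subtracted the difference was -0.078 (adjusted p = 0.754), so whether Elk1 differed between the groups could not be settled from these values.

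Myc and its dimer partner Max differed in size of change. Myc, a driver of growth and ribosome genes, read 1399, 1433 and 1369 with UV and 423, 459 and 383 with BMS-202, a log2 difference of -1.73 ± 0.063 (SE, limma adjusted p = 9.88e-10). Max, which also pairs with Myc's antagonists, read 385, 374 and 386 with UV and 303, 308 and 299 with BMS-202. Its groups are separate but close, and the samples within each lie near each other. The log2 difference of Max was -0.33 ± 0.052 (SE, limma adjusted p = 1.24e-04).

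Ddit3, the stress gene that encodes CHOP, read 246, 248 and 235 with UV and 105, 100 and 110 with BMS-202. The values are tight in both groups and well separated. Its log2 difference was -1.20 ± 0.075 (SE, limma adjusted p = 6.66e-08), between those of Max and Myc.

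The direction of most of the 8 genes depended on the reference. With the 6 housekeeping genes as reference, 1 gene was called lower and 6 higher, and with the 5 other than Gapdh 0 were lower and 7 higher. These scalings moved the median of all tested genes by 1.91 and 2.11 on the log2 scale. The panel median moved it by 0.32 (5 lower, 2 higher), quantile normalization by 0.61 (3 and 3) and scaling to the positive spike-ins by -0.37 (6 and 1). Of all tested genes these called 121 lower and 102 higher, 96 and 99, and 142 and 81, in the same order. Creb1 was called higher under all 6 scalings, with log2 differences of 1.20 to 2.24, but its UV values lie next to the lowest value written, which rescaling moves too. With both housekeeping scalings (2.24 each) and the panel median (2.22) the UV values of Creb1 were set to the lowest value left after rescaling. These differences do not measure its change. Jun was called lower under 5, by as little as -0.31 (limma adjusted p = 0.0141) with the 6 housekeeping genes, and did not pass with the 5 housekeeping genes (0.15, limma adjusted p = 0.165). Atf2, Myc, Max and Ddit3 were called in both directions across the 6 scalings, as were Fos and Elk1. With both housekeeping scalings all UV values of Elk1 were set to the lowest value left after rescaling. Its SE there was 0.017 and 0.020, against 0.15 relative to Gapdh. The higher calls of Elk1 with these scalings (0.881 and 0.877) are in the counts above and do not measure its change. Max ranged from -0.71 with the spike-in controls to 2.38 with the 5 housekeeping genes. Counted per positive spike-in count, Jun with BMS-202 was at 0.130 of its UV level, Fos 0.184, Atf2 0.227, Myc 0.231, Ddit3 0.333 and Max 0.609. On this scale the housekeeping genes lay at 0.767 (Gapdh), 0.328 (Tubb5), 0.121 (Hprt), 0.0998 (Pgk1), 0.0785 (Cltc) and 0.0723 (Gusb). Creb1 and Elk1 are left out here because the UV mean of Creb1 and the BMS-202 mean of Elk1 lie near background.

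**Figure D2:**
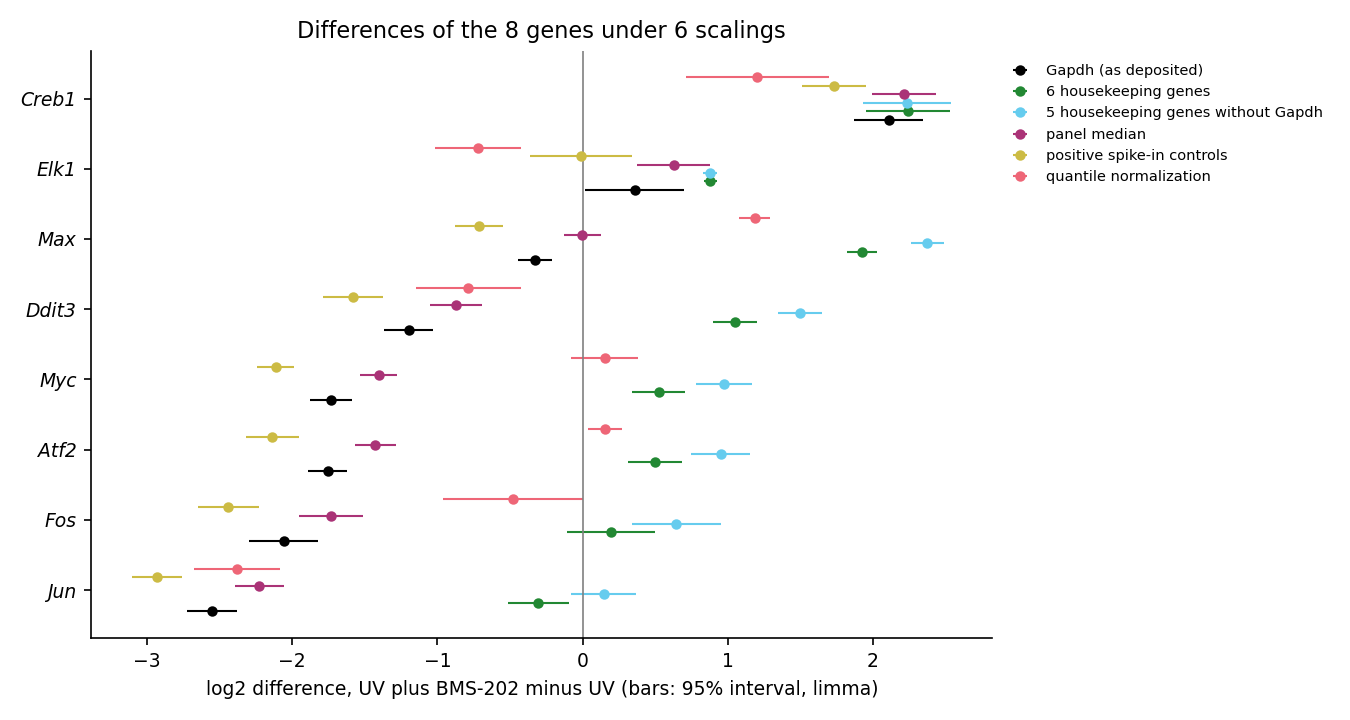
Log2 difference (UV plus BMS-202 minus UV, bars are 95% intervals from limma) of the 8 genes under 6 scalings, 1 colour each. Creb1 stays right of 0 under all 6 (1.20 to 2.24) and Jun lies left of 0 under 5, while the points of the other 6 genes fall on both sides. With both housekeeping scalings and the panel median the UV values of Creb1 were set to the lowest value left after rescaling.

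A ratio of 2 genes within a sample cancels the scaling and so compares their changes without a reference gene. Log2 ratios were taken from value + 1, so there the scaling cancels only nearly, and background does not cancel in either form. It is a ratio of probe signals, not of molecules. The samples of the groups did not overlap in 26 of the 28 pairs, against 91.4% of all pairs of tested genes. The exact two-sided permutation test cannot give less than 0.1 with 3 against 3 samples, and these 26 pairs were at 0.1 (0.108 after Benjamini-Hochberg adjustment over the 28 pairs). Fos over Jun was 1.48, 1.45 and 1.44 with UV and 2.38, 2.15 and 1.72 with BMS-202. All 3 BMS-202 ratios lie above the UV ratios, and the log2 ratio was higher by 0.49 ± 0.14 (SE, 3 samples per group). Myc over Max was 3.64, 3.83 and 3.55 with UV and 1.40, 1.49 and 1.28 with BMS-202. All 3 BMS-202 ratios lie below the lowest UV ratio, with a log2 difference of -1.40 ± 0.071 (SE). Jun over its partner Atf2 went from 0.614, 0.615 and 0.571 to 0.346, 0.361 and 0.322, a log2 difference of -0.80 ± 0.060 (SE). The ratios with Jun depended on background. With the negative control mean subtracted the difference was 0.71 for Fos over Jun and -1.07 for Jun over Atf2, while Myc over Max stayed at -1.40.

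The pairs that overlapped were Atf2 with Myc and Atf2 with Fos. For Atf2 over Myc the log2 ratio differed by -0.02, with a 95% interval of -0.32 to 0.28. For Fos over Atf2 it differed by -0.30, with an interval of -0.82 to 0.21. Both intervals include unequal change of the pair. With the negative control mean subtracted the samples of Fos over Atf2 no longer overlapped (-0.36). The log2 ratios of Myc, Atf2, Fos and Jun over Max fell by 1.40, 1.42, 1.73 and 2.22, and that of Max over Ddit3 was higher by 0.87. After the same subtraction the differences were -1.40, -1.48, -1.84 and -2.55, and 1.06 for Max over Ddit3. Ratios with Elk1 or Creb1 rest on values near background in at least 1 group, and that of Elk1 and Max overlapped once the negative control mean was subtracted.

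**Figure D3:**
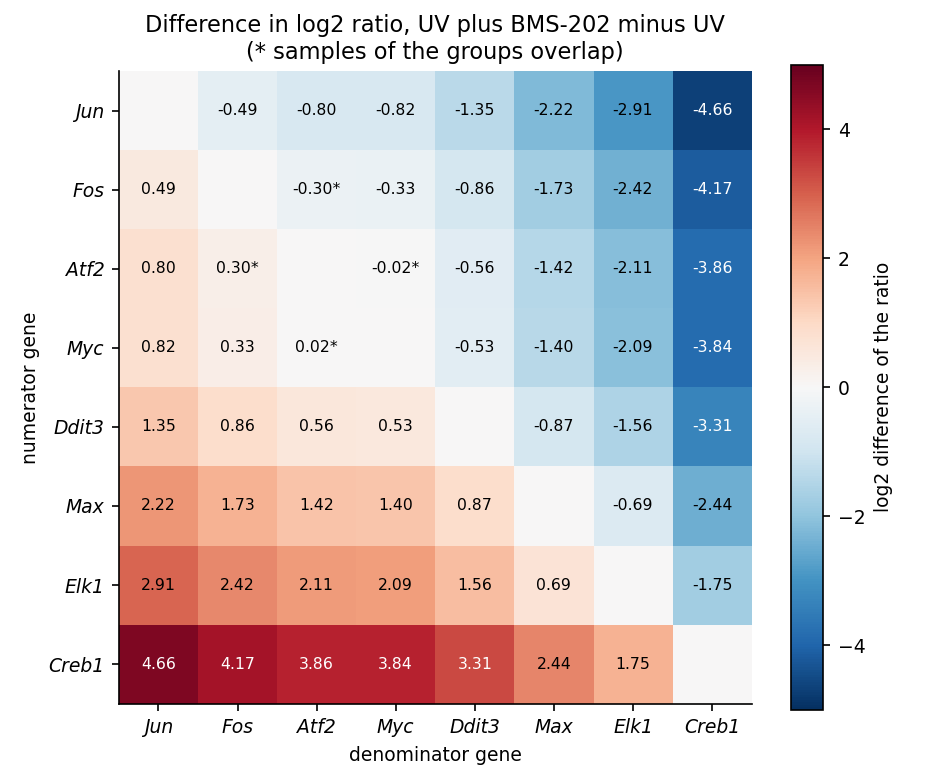
Difference in the log2 ratio of each pair (row gene over column gene, UV plus BMS-202 minus UV), with an asterisk where samples of the groups overlap. Genes are ordered by change, so sizes grow towards the corner of Jun over Creb1 (-4.66), and the smallest is that of Atf2 over Myc (-0.02).

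The direction of panel genes varied with their level in UV skin. Among tested genes with UV means of 300 to 1000, 54 of 56 were called lower (median log2 -1.80). Tested genes with means up to 100 that were above 20 in at least 1 UV sample numbered 62. Some of them read 20 in other UV samples and passed the filter only with BMS-202 values. Of the 62, 48 were called higher and 8 lower (median 1.04). Each of the 8 genes was therefore set beside the other tested genes whose UV mean lay within 1.5-fold of its own, as a description with no test. Max stood high among its 44 neighbours, of which 41 had a lower difference than Max (median -1.57). Myc was less reduced than 16 of its 17 neighbours (median -2.47) and Atf2 than 21 of 26 (median -2.38). Jun was more reduced than 34 of its 39 neighbours (median -1.68). Fos lay among its neighbours, with 18 of 29 below it (median -2.18), and so did Ddit3, with 20 of 46 below it (median -0.97). Among the neighbours of Creb1, and among those of Elk1, 38 genes read 20 throughout the UV group. Such genes were tested only if BMS-202 skin read higher, so the counts of neighbours are no measure for this pair. Creb1 had 35 of 61 neighbours below it (median 1.92) and Elk1 3 of 68 (median 1.87). With a narrower and a wider window, Jun stayed under and Max, Myc and Atf2 over the median of their neighbours, whereas Fos turned to under it and Ddit3 to over it in the wider one.

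**Figure D4:**
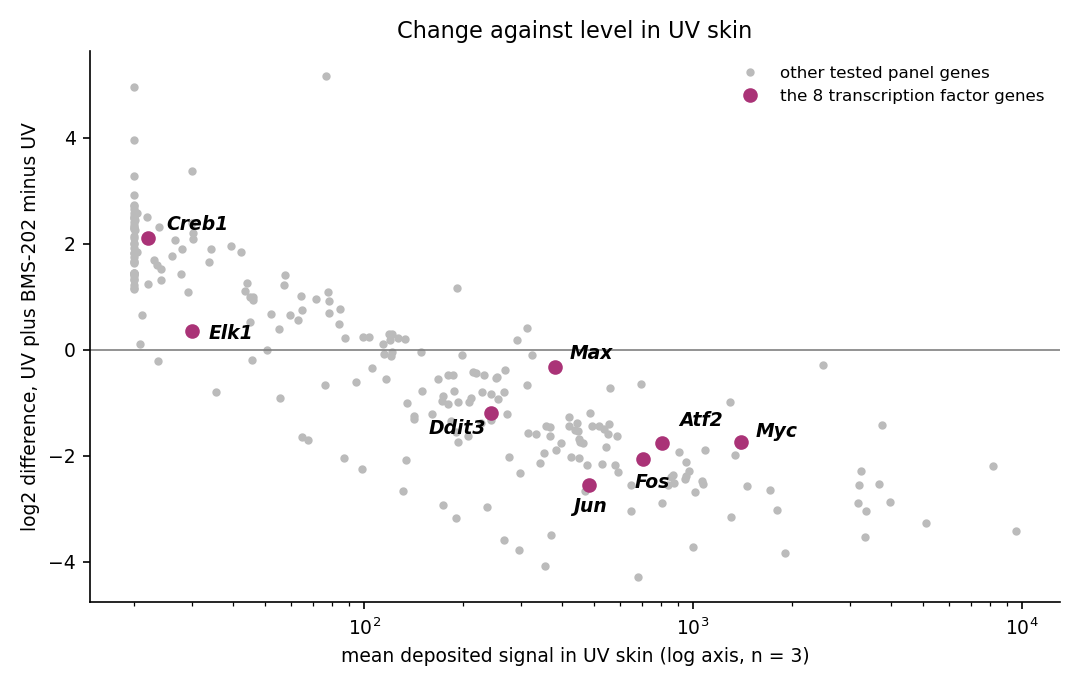
Mean signal in UV skin (log axis, n = 3) against the log2 difference for 240 tested genes, with the 8 transcription factor genes in purple. The cloud slopes down from left to right. Max lies above most genes of its level and Jun below most.

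The kinases and adaptors upstream of these factors were mostly lower as well. Of 8 MAP3K and MAP2K genes 7 were lower and 1 higher (median log2 -2.35), against 55% and 38.3% of all tested genes (median -0.56). The median UV mean of this list was 675 and that of all tested genes 164, and at UV means of 300 to 1000 nearly all genes were lower (54 of 56), so 7 of 8 lies near the share for that level. Map2k4, which encodes a kinase that activates JNK, read 1011 ± 12.4 (mean ± SD, n = 3) in UV skin and was 6.42-fold lower, at 157 ± 4.36, after BMS-202, and the stress-sensing kinase gene Map3k5 was 6.36-fold lower. Of the MAP kinases and their effector kinases 6 of 7 tested genes were lower (median -1.88), at a median UV mean of 374 for the list. In this list Mapk3, which encodes ERK1, was 6.27-fold and Mapk14, which encodes p38 alpha, 5.88-fold lower. The genes called higher in these lists, named after their values were seen, were Map3k9 (at least 2.30-fold), the GTPase gene Hras1 (1.595-fold) and Rps6ka5, which encodes MSK1, a kinase that phosphorylates CREB, and read 2.34-fold higher, from 56.9 to 133. Mapkapk5 was not tested, since it read 20 in all 3 UV samples and in 1 of 3 with BMS-202. Of 6 adaptors and GTPases 5 were lower (median -2.18), with the adaptor gene Shc1 7.39-fold and the GTPase gene Rac1 7.35-fold lower. Their median UV mean was 692. Neither 6 of 7 nor 5 of 6 exceeds the share of genes lower at UV means of 300 to 1000 (54 of 56).

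Other transcription factor genes moved in both directions. Of 17 on the panel 14 were lower and 3 higher (median log2 -1.63), against 55% and 38.3% of all tested genes. Their median UV mean was 313, and at UV means of 300 to 1000 54 of 56 tested genes were lower. The oxygen-sensing factor gene Hif1a was 9.59-fold lower and Bcl6, which encodes a repressor, at least 5.89-fold lower. The 3 that were higher, named after their values were seen, were the interferon regulatory factor genes Irf3 (3.81-fold) and Irf7 (1.90-fold), and Mafg (1.32-fold). Of 4 MEF2 genes, a family in which some members are targets of p38, 2 were lower and 2 higher (median -0.40). Mef2c (listed as Mef2c_Mm) was at least 7.83-fold lower, reading 20 in each BMS-202 sample, and Mef2d was 3.00-fold lower, while Mef2a and Mef2b, also named after their values were seen, were higher. Of 9 genes known as AP-1 targets 6 were lower and 3 higher (median -0.80), near the 55% and 38.3% of all tested genes. The matrix protease gene Mmp9 fell 8.24-fold and the growth factor gene Tgfb1 13.3-fold. Csf2 and Il2, like Mef2b, were at 20 in all UV samples and could only read higher, and the cytokine gene Tnf read 1.68-fold higher. The small heat shock gene Hspb1, which encodes a p38 pathway substrate, was 2.68-fold lower and its relative Hspb2 1.14-fold higher (limma adjusted p = 0.0375). These counts depended on Gapdh as well. With the 5 other housekeeping genes as reference, 0 MAP3K and MAP2K genes were called lower and 4 higher. The counts were 0 and 6 for the MAP kinases and effector kinases, and 0 and 4 for the adaptors and GTPases. They were 4 and 12 for the other transcription factor genes, and 1 and 3 for the MEF2 genes. The AP-1 targets gave 1 and 7 and the small heat shock genes 0 and 2. The same reference called 15 of all tested genes lower and 202 higher, so higher calls were the common outcome across the panel. Under all 6 scalings Hif1a, Bcl6, Stat3, Cebpb, Mef2c_Mm and Tgfb1 were called lower, and Rps6ka5, Irf3, Irf7, Mef2a and Tnf higher. Mef2b, Csf2 and Il2, at 20 in all UV samples, were also called higher under all 6. The UV values of those called higher were set to the highest rescaled 20 with both housekeeping scalings. No test of a list was made.

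**Figure D5:**
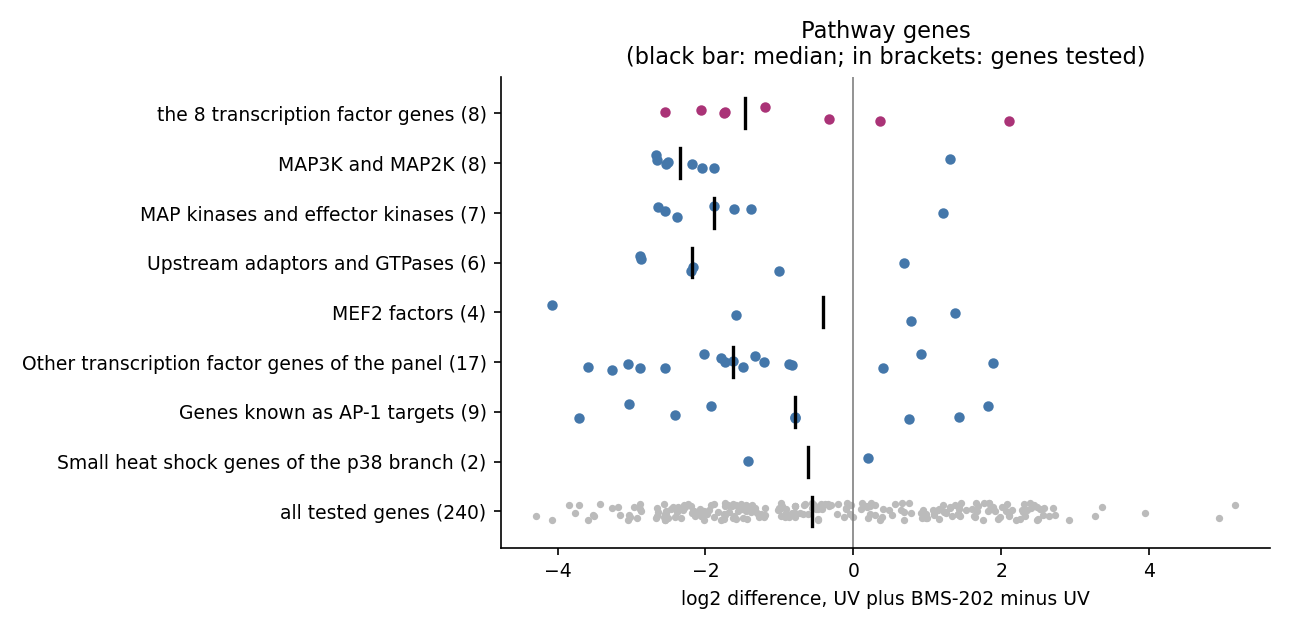
Log2 difference of each tested gene in the 8 transcription factor genes, 7 related lists and all 240 tested genes, with the median as a black bar. Medians of the kinase and adaptor lists lie between -2.35 and -1.88, and that of all genes at -0.56.

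The panel gene nearest to each of the 8 was found by the Euclidean distance over the log2(value + 1) of the 6 samples, which weighs level and difference alike. Jun was nearest to Map3k5 (distance 0.42), Fos to the chemokine gene Ccl2 (0.57) and Atf2 to the matrix protease gene Mmp3 (0.32). Myc was nearest to Nfe2l2, which encodes NRF2 (0.27), and Ddit3 to Stat2 (0.29). Max was nearest to Rapgef2 (0.43), which read 324 ± 14.9 (mean ± SD, n = 3) in UV skin and 302 ± 9.91 after BMS-202 and did not pass (limma adjusted p = 0.128). Creb1 was nearest to the thromboxane receptor gene Tbxa2r (0.25), and Elk1 had no close neighbour, with Tlr3 at a distance of 1.05.

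Marker genes of other cells moved beside these results. In bulk skin fewer cells of a type and less RNA per cell cannot be told apart. Genes at 20 in all UV samples could only be called higher, and most genes of low level in UV skin were called higher, so the calls of such markers are not read as a change of a cell type. Of the T cell markers 5 of 7 are in the table, and their summed signal lay between 136 and 161 in UV skin and between 369.9 and 383 after treatment. Ccr4, Cd40lg and Fasl were at 20 in all 3 UV samples, and Cd4 and Ltb were called higher. Of 9 macrophage and monocyte markers 5 are in the table, with 2 lower, 1 higher and 2 not past, and sums of 1344 to 1422 and 783 to 878. The muscle marker Myl2 read 20 in every UV sample and 96.9 to 111 with BMS-202, and 4 liver genes (C9, Crp, Kng1 and Mbl2) summed to 582 to 613 from 20 each. Of 5 neutrophil markers 2 are in the table, Cxcr1, at 20 in all UV samples, and Cxcr2, which did not pass, with sums of 119 to 145 in UV skin and 183 to 221 with BMS-202. The single eosinophil marker in the table, Ccr3, read 20 in every UV sample and 110 to 129 with BMS-202, and the endothelial marker Flt1 fell from between 130 and 168 to between 80.0 and 91.9. None of the B cell or adipocyte markers is in the table. None of the 4 keratinocyte markers is in the table, so the skin label could not be checked against them. The part of cell composition in the values of the 8 genes was not tested.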

How the data were processed

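The deposited table holds 1 column per sample. Per the labels, RNA was column-extracted and assayed on the nCounter panel. As deposited, gene values are a signal scaled per sample: 100% of those above 20 were whole multiples of a sample's step (tolerance 0.006 plus 1e-06 of the value), Gapdh is equal in all samples, and the spike-in rows are unscaled counts. How the authors treated background, and with which software, is not given in the sources used here. A step was 0.839 to 0.927 in UV samples and 1.09 to 1.21 in BMS-202 samples, and 20 stands for 16.5 to 23.8 counts. Genes near this value rest on few counts.

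Groups came from the treatment label. The fit was made in R 4.3.3 with limma 3.58.1 (lmFit, then eBayes allowing a variance trend). It took log2(value + 1), which understates changes of low genes, of each endogenous gene that exceeded 20 in 3 or more samples, with Benjamini-Hochberg adjustment over these 240 genes at 0.05. Folds are ratios of group means, computed against the negative control limit and given as "at least" where the lower mean lay under it. The fit was tried on simulated counts in which Gapdh and 138 of the 226 genes fitted did not change, and 2.2% of these 138 were called. That setting is unlike these data, where 93.3% of tested genes were called. It cannot speak to the choice of reference. After rescaling, the highest of the rescaled 20s became the lowest value in every sample.

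The 8 genes and the lists were chosen with earlier results of these data known. Named genes were the 8, the 2 of each list with the largest absolute log2 difference, the nearest panel gene of each of the 8, and housekeeping genes. Csf2, Il2, Tnf, Stat3, Cebpb, Mapkapk5, the genes of a list that went against most of it and marker genes were named beside these. Symbols were matched to RefSeq (GRCm38.p6), 247 directly and 6 as synonyms. The closing section lists the alternatives.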

Additional observations from a re-analysis of the deposited data

How the results depend on the processing

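The deposited scaling called 132 panel genes lower and 92 higher. The 6 housekeeping genes gave 34 lower and 184 higher, and the 5 without Gapdh 15 and 202. The count of the 8 genes called lower, 6 as deposited, became 1 with the 6 housekeeping genes, 0 with the 5 (7 higher) and 3 with quantile normalization. The count called higher, 2 as deposited, became 6 and 7 with the housekeeping scalings and 1 with spike-in scaling, with the negative control mean subtracted, without a filter, with a filter above 50 (which leaves out Elk1), without the variance trend and with the replicate block. The counts with the housekeeping scalings include Elk1 and Creb1, whose UV values were then all set to the lowest value left after rescaling. Leaving out each sample gave 1 to 2 higher and 6 lower each time. Log2 differences that changed sign with the 6 housekeeping genes were Fos 0.19 (limma adjusted p = 0.178), Atf2 0.50, Myc 0.52, Max 1.92 and Ddit3 1.05. With the 5 they were Fos 0.65, Jun 0.15, Atf2 0.95, Myc 0.98, Max 2.38 and Ddit3 1.499. Quantile normalization gave Atf2 0.16, Myc 0.15 (adjusted p = 0.177), Max 1.19 and Elk1 -0.72, and Fos did not pass (-0.48, adjusted p = 0.0607). Max did not pass with the panel median (-0.003, adjusted p = 0.961). Elk1 was -0.011 with spike-in scaling and -0.078 with the negative control mean subtracted. The cause of these shifts was not tested.

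The titles number the samples 1 to 3 in both groups, but deviations of same-numbered samples correlated at 0.02, -0.03 and 0.01 over the tested genes, so the numbers were not taken as pairs. The replicate block changed only the call of Elk1 among the 8 (adjusted p = 0.0544) and gave 132 lower and 90 higher panel genes. Pairs of the 8 genes without overlap numbered 26 with a pseudocount of 10. They also numbered 26 with the negative control mean subtracted, but Fos over Atf2 then no longer overlapped and Elk1 over Max did. Robust variance and a pseudocount of 10 changed no call of the 8. Elk1 and the UV level of Creb1 lie near the negative probes, which limits what can be said of them.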
